A study of Mus musculus with 28 samples.

Results

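Bulk RNA-Seq of the cerebral cortex at postnatal day 17 (P17) was compared between 4 conditional knockout (cKO) mice and 4 control (Ctrl) mice. These 8 of the 28 libraries of the series are all those of the P17 count table, and the comparison was made over every gene of that table. In cKO mice the mGFAP-Cre driver acted on loxP-flanked alleles of the targeted gene. The Ctrl mice were littermates of the same sex with loxP/loxP or loxP/+ alleles, a genotype that is given without the driver. Cre is expressed in the cKO mice from Gfap promoter sequence, which is used by astrocytes and by some neural progenitors. Cells that never expressed Cre kept the gene, and a bulk cKO library mixes them with cells that lost it. Each library was made from the cortex of 1 mouse by oligo-dT priming. The remaining libraries were made at P24, 8 from bulk cortex of cKO and Ctrl mice and 12 by TRAP-Seq, in which tagged ribosomes of Cre-expressing cells were immunoprecipitated (IP) and set beside the Input lysate of the same mice.

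The libraries held 8855488 to 11454729 counts (9157582 to 9448118 in cKO), so that 3 counts corresponded to 0.262 to 0.339 CPM (counts scaled to library size with trimmed-mean factors), a floor that covers counting error only. Of 53342 gene identifiers, 21201 passed a filter on low counts and were tested. Markers of neurons and of astrocytes were present in every library. Together 10 neuronal markers held 6139 to 6489 CPM in cKO and 6152 to 6529 CPM in Ctrl, and 12 astrocyte markers held 5631 to 6221 CPM in cKO and 5561 to 5853 CPM in Ctrl. In a bulk library, fewer cells of a type and less RNA per cell cannot be told apart. Same-numbered cKO and Ctrl libraries shared features that did not follow genotype. Xist, which is transcribed from the inactive X chromosome, was at 612 CPM in cKO 1, 614 CPM in Ctrl 1 and 0.569 CPM or less in the other 6. The sum of 6 striatal markers was low in both libraries numbered 3 (163.7 CPM in cKO and 141.3 CPM in Ctrl, against 351.6 to 433.6 CPM in the other 6), and the sum of 13 immediate early genes was lowest in both libraries numbered 2 (448.8 and 432.2 CPM). Residuals over all tested genes also correlated most within the 4 same-numbered pairs, so the comparison is given both unblocked and blocked by replicate number, a fit in which each cKO library is set beside the Ctrl library of its number.

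**Figure D1:**
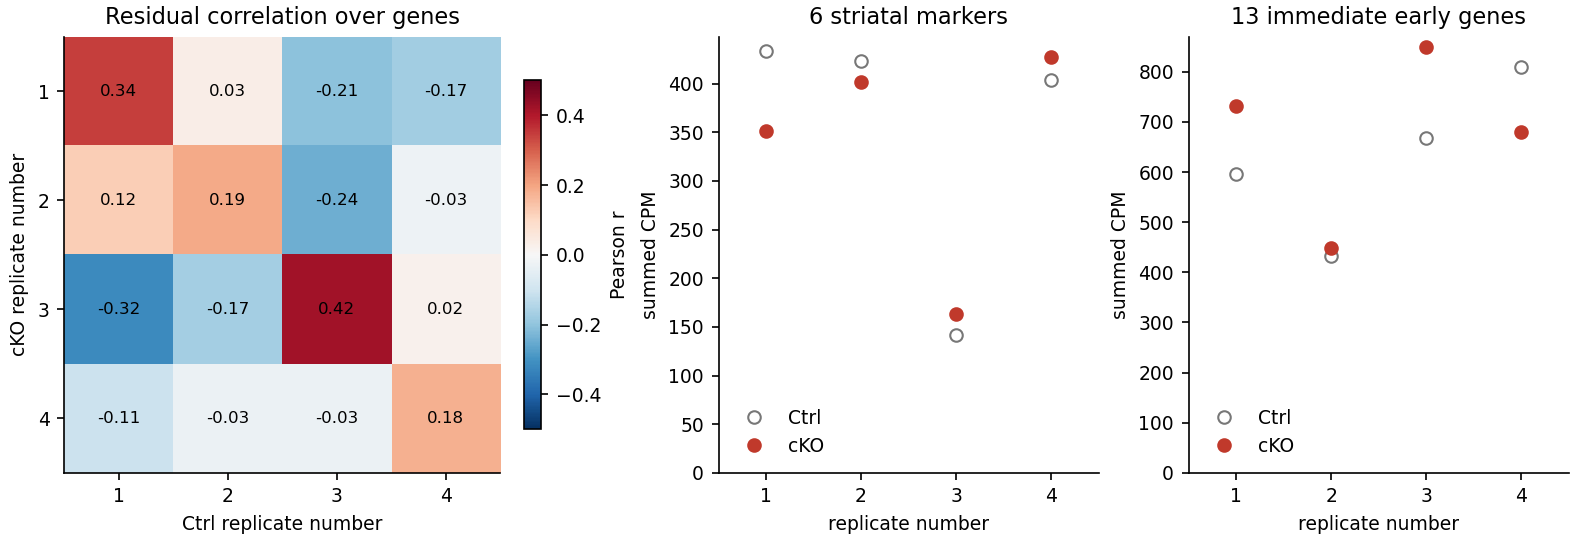
Left: Pearson correlation over all tested genes between the residuals of each cKO library (rows) and each Ctrl library (columns), by replicate number. Middle and right: summed CPM of 6 striatal markers and of 13 immediate early genes in each cKO library (filled) and Ctrl library (open), by replicate number. The 4 same-numbered pairs on the diagonal have the highest correlations, and both libraries numbered 3 are low in striatal markers.

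Astrocytes take up the potassium and glutamate that neurons release, and the sodium pump supplies the gradient on which this uptake depends. They also store and break down glycogen, supply lipid and amino acid precursors to neurons, and respond to disturbance of the tissue by raising intermediate filament genes such as Gfap and Vim, a state called reactive astrocytosis. At P17 the mouse cortex is still maturing, with synapses and myelin being formed. The comparison addresses which genes had changed at this early stage of the deletion.

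Without a block, 20 genes passed an adjusted p under 0.05 by the edgeR quasi-likelihood test, which is 0.0943% of the genes tested (14 up, 0.066%, and 6 down, 0.0283%). Of the 21201 tested, 847 had an unadjusted p under 0.05. That is below the share of 0.05 that chance alone would give if no gene changed. The 17 named here, 14 up and 3 down, separated the groups without overlap. Among all tested genes every cKO library lay above every Ctrl library for 1.74% and below for 1.09%. The same libraries chose the 17 genes, so their lack of overlap is not separate evidence of a change.

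The intermediate filament gene Gfap (chr11:102887336-102900912, minus strand, build mm10) was raised in the cKO cortex. Gfap held 240.1, 276, 313 and 252 CPM in cKO libraries 1 to 4 and 121, 133, 139 and 138 CPM in Ctrl libraries 1 to 4, a mean of 270.2 ± 32.0 CPM in cKO and 133 ± 8.12 CPM in Ctrl (SD, n = 4 each). Every cKO library was above every Ctrl library, and the log2 fold change was 1.03 ± 0.08 (± standard error, as for all fold changes), adjusted p = 8.58e-05. Gm26668, a long noncoding transcript on the opposite strand that spans the whole of Gfap over 13577 bases, held 452, 509, 537 and 465 CPM in cKO and 329, 354, 355 and 353 CPM in Ctrl, also without overlap (log2 fold change 0.50 ± 0.06, adjusted p = 0.00338). Whether the authors' counting used strand is not given in the sources used here, so reads of Gfap and Gm26668 cannot be told apart. Fam187a, which lies 605 bases beyond the 3′ end of Gfap and inside Gm26668, had 53, 63, 41 and 53 reads in the cKO libraries and 1, 1, 4 and 0 reads in the Ctrl libraries. Its 210 reads against 6 were the largest fold difference among the named genes (log2 fold change 5.12 ± 0.41, adjusted p = 8.58e-05). Of the 6 Ctrl reads 4 were in Ctrl 3, and the log2 fold change ran from 4.79 to 6.2 with 1 library left out, the highest without Ctrl 3. Of 34 genes tested within 500 kb of Gfap, Gm26668 and Fam187a passed, with or without the block, and the other 32 did not. The driver, which holds Gfap promoter sequence, is given for the cKO mice alone. Reads or effects of the driver at Gfap, Gm26668 and Fam187a therefore cannot be told apart from an effect of the deletion.

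The window from 250 bases before to 50 bases after the annotated start is shown for Gfap and for Vapa, which had the largest rise and the largest fall at more than 20 CPM among the 17 genes (RefSeq, GRCm38.p6, 5′ to 3′ on the strand of the gene, minus for both). The Gfap window is chr11:102897151-102897450 and the Vapa window is chr17:65613506-65613805. The RefSeq start of Gfap lies 3712 bases inside the GENCODE gene span given above, which begins further upstream, while both annotations give Vapa the same start. Capitals mark the letters TTCNNNGAA, the core bound by STAT factors, in Gfap and CACGTG, an E-box, in Vapa, the first base lying at -2 and -1 from the start.
Gfap: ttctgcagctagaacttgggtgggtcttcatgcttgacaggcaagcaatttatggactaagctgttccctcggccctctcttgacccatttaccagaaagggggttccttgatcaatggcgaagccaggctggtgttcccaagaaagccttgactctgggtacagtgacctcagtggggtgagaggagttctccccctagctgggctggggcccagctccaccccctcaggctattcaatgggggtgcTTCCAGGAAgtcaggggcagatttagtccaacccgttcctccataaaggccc
Vapa: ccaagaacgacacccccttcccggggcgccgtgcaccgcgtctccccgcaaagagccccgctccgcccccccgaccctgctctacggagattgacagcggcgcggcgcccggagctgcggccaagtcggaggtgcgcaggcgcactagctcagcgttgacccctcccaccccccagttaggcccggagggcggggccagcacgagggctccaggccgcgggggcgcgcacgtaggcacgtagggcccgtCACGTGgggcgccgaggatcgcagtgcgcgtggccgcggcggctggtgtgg
Both strands of 12 of the 17 windows and of 67 of the 106 named genes that passed with the block were searched. TTCNNNGAA was found in 8.33% of the 12 and 8.96% of the 67, against 9.55% of 27025 genes with such a window. CACGTG was found in 8.33% and 10.4%, against 8.09%. TGACNNNGC, the antioxidant response core, was found in none of the 12 and in 10.4% of the 67, against 14%, and TATAAA in none and 13.4%, against 15.7%. These are matches of letters near the share of all genes, and binding was not measured.

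Kcnj10, Pea15a, Atp1b2 and Slc9a3r1, which act in transport and signalling in astrocytes, also rose. Kcnj10, the inward rectifier potassium channel through which astrocytes take up potassium, held 248.6, 235, 289.7 and 237 CPM in cKO and 150.1, 140.1, 139 and 136 CPM in Ctrl. The lowest cKO library stood 235 against 150.1 CPM in the highest Ctrl library, and the log2 fold change was 0.84 ± 0.07, adjusted p = 1.68e-04. Pea15a, an adaptor protein that binds ERK and is abundant in astrocytes, held 378, 429, 493 and 453 CPM in cKO and 258, 288, 305 and 285 CPM in Ctrl (log2 fold change 0.63 ± 0.08, adjusted p = 0.00486). Both genes lie on chromosome 1 within 500 kb of the targeted gene, as does Dcaf8, which overlaps the end of Pea15a by 278 bases and passed with the block alone (0.20 ± 0.04, adjusted p = 0.0355). A further 17 genes tested in that window did not pass either fit. Atp1b2, the beta-2 subunit of the sodium pump, which is also a glial adhesion molecule, held 427, 441, 505 and 464 CPM in cKO and 347, 365, 358 and 351 CPM in Ctrl (0.37 ± 0.05, adjusted p = 0.0199). The other 9 pump subunits and regulators reported here had log2 fold changes of -0.08 to 0.23 and none passed, the lowest unadjusted p being 0.0883. Slc9a3r1, a scaffold for membrane transporters, held 39.5 to 44.4 CPM in cKO and 30.6 to 33.8 CPM in Ctrl (0.39 ± 0.06, adjusted p = 0.0250).

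Of the remaining genes that rose without the block, Gpt, the alanine aminotransferase that joins alanine to the glutamate pool, had the largest fold change. It held 11.6, 12.9, 15.9 and 14.4 CPM in cKO and 6.40, 7.49, 8.75 and 7.17 CPM in Ctrl, a log2 fold change of 0.88 ± 0.13, adjusted p = 0.0245. Mfsd2a, which carries lysophosphatidylcholine with omega-3 fatty acids across the blood-brain barrier, held 48.5, 46.0, 47.9 and 43.8 CPM in cKO and 33.6, 33.0, 35.7 and 36.8 CPM in Ctrl (0.42 ± 0.06, adjusted p = 0.0132). Igfbp5, a binding protein for insulin-like growth factors, held 175 to 209.7 CPM in cKO and 129 to 145 CPM in Ctrl (0.52 ± 0.07, adjusted p = 0.0106). Lrig1, a membrane protein that dampens growth factor receptor signalling, held 47.1 to 58.0 CPM against 34.6 to 36.4 CPM (0.56 ± 0.07, adjusted p = 0.00360). The calcium-binding protein gene S100a1 had 56.5 to 68.4 CPM against 37.9 to 47.0 CPM (0.53 ± 0.09, adjusted p = 0.0498), and Scrg1, a small secreted protein first described in prion disease, had 20.3 to 24.1 CPM against 13.1 to 16.9 CPM (0.58 ± 0.09, adjusted p = 0.0481). Nat8f3, a member of a family of acetyltransferase-like genes with close copies that can share reads, had 8.49 to 9.50 CPM against 4.78 to 6.09 CPM (0.73 ± 0.12, adjusted p = 0.0498). S100a1 and Nat8f3 thus lay just inside the threshold.

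Vapa, Rab31 and Cbarp fell. Vapa (chr17:65578327-65613555, minus strand), which anchors the endoplasmic reticulum to other membranes and is used in lipid transfer between them, held 28.7, 26.5, 32.6 and 31.4 CPM in cKO and 67.2, 63.9, 60.4 and 57.7 CPM in Ctrl. The cKO libraries were all at 32.6 CPM or less and the Ctrl libraries all at 57.7 CPM or more, with a mean of 29.8 ± 2.72 CPM in cKO and 62.3 ± 4.18 CPM in Ctrl (SD, n = 4 each) and a log2 fold change of -1.06 ± 0.07, adjusted p = 2.73e-05. Rab31, a small GTPase of endosomal transport whose gene lies 38.2 kb from Vapa, held 45.2, 48.7, 47.1 and 44.9 CPM in cKO and 69.5, 73.4, 75.2 and 71.0 CPM in Ctrl (-0.64 ± 0.06, adjusted p = 1.83e-04). The remaining 7 of the 8 genes tested within 500 kb of Vapa did not pass. Cbarp, a neuronal regulator of voltage-gated calcium channels, held 245, 240.2, 259 and 259 CPM in cKO and 315, 315, 328 and 365 CPM in Ctrl (-0.40 ± 0.06, adjusted p = 0.0199). Its gene overlaps Atp5d over 2204 bases on the other strand, and Atp5d had a log2 fold change of 0.04.

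Leaving out 1 library at a time kept the direction of all 17 genes. Gfap, Gm26668, Fam187a, Kcnj10, Pea15a, Lrig1, Vapa and Rab31 passed in all 8 such fits. Igfbp5 was lost without cKO 2 or Ctrl 2. Mfsd2a passed only without cKO 4, Ctrl 1 or Ctrl 4, Gpt without cKO 1 or Ctrl 3, Cbarp without cKO 3 or Ctrl 1, and Atp1b2 without cKO 1 or cKO 3. Slc9a3r1 passed only without cKO 1 and Scrg1 only without Ctrl 4, and S100a1 and Nat8f3 passed in none of the 8. With the block all 17 passed again, with the highest adjusted p at 0.00672 for Nat8f3.

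**Figure D2:**
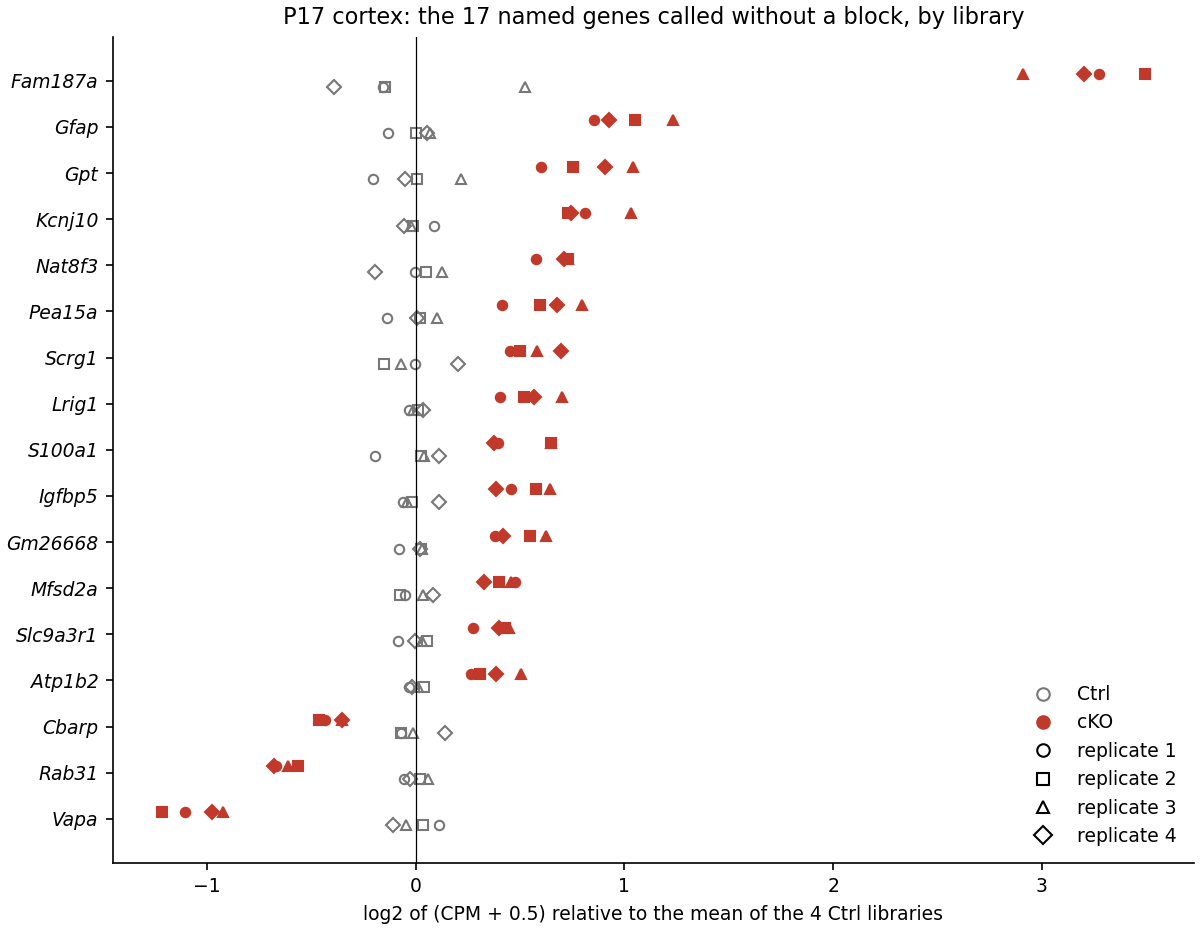
Levels of the 17 named genes that passed without a block, in each library, as log2 of (CPM + 0.5) relative to the mean of the 4 Ctrl libraries (horizontal axis). Filled symbols are cKO and open symbols Ctrl, and the shape gives the replicate number. No cKO symbol overlaps the Ctrl symbols of its gene, 14 genes lying above and 3 below.

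When replicate number was fitted as a block, 109 genes passed, 0.514% of those tested (84 up, 0.396%, and 25 down, 0.118%). Of the 21201 tested, 1456 had an unadjusted p under 0.05, which is above the share of 0.05 given by chance alone. All 20 genes of the first fit were among the 109. Of the 89 that passed with the block alone, 70 were up and 19 down, and 87 moved the same way in all 4 same-numbered pairs. In 65 of the 89 the groups did not overlap, and the median size of the change was 0.50 on the log2 scale, or 41.2%. Among all tested genes 1.74% lay wholly above and 1.09% wholly below, and no such share was taken for the pairs. The same libraries chose the 89 genes, so these counts are not separate evidence of a change. Leaving out 1 pair at a time in this fit, 36, 32, 31 and 58 of the 89 were still called without pairs 1, 2, 3 and 4. Dio2, Slco1c1, Gm26512, Gstm1, Gstm2-ps1, Prdx6, Pnp, Dhrs1, Appl2, Fam107a, Mt2, Gm45774, Myocos and Gm24528 passed in each of these 4 fits. The call was lost whichever pair was left out for 19 genes: Aldh1l1, Hes5, Ifitm3, Slc25a34, Ednrb, Chrdl1, Entpd2, Vcam1, Ppp1r3c, Ddr1, Dcaf8, Nat8f7, Ccdc80, Gm11532, Bfsp2, Fam20a and 3 small nucleolar RNAs. For every gene described from here to the TRAP-Seq comparison, the fold change and adjusted p are those of the edgeR fit with the block unless another is named, and medians over a list are those without it.

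**Figure D3:**
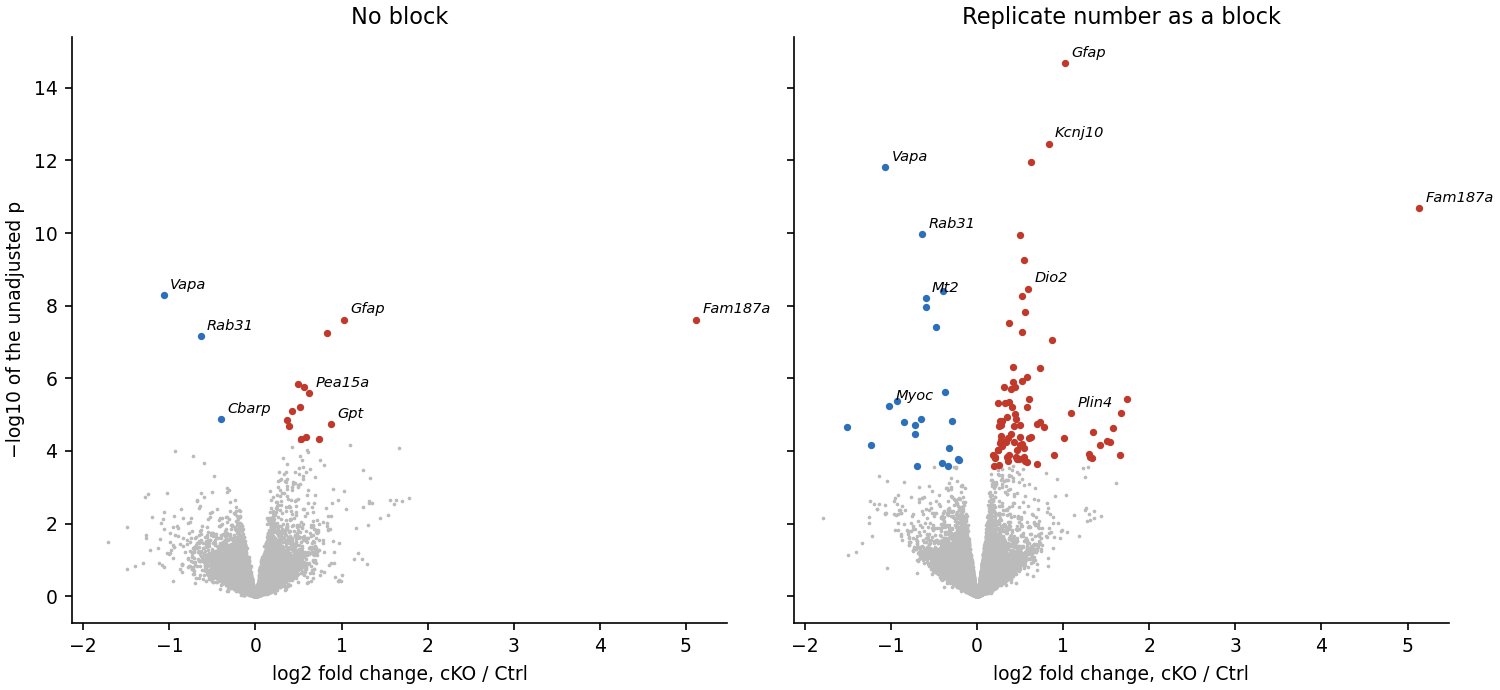
Log2 fold change between cKO and Ctrl cortex at P17 (horizontal axis) against the negative log10 of the unadjusted p (vertical axis), without a block (left) and with a block for replicate number (right). Each point is a gene, red and blue where it passed upwards or downwards. More genes pass on the right (109 against 20), mostly upwards.

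Genes of thyroid hormone handling were among those that rose. Dio2, the deiodinase with which astrocytes convert thyroxine into active triiodothyronine, held 126, 118, 165 and 137 CPM in cKO and 80.6, 86.6, 90.9 and 103 CPM in Ctrl. Every cKO library was above every Ctrl library (0.59 ± 0.06, adjusted p = 6.01e-06), though without the block Dio2 had an adjusted p of 0.0821. Slco1c1, the transporter that brings thyroxine into the brain, held 63.8, 50.4, 61.5 and 60.0 CPM in cKO and 46.0, 42.3, 43.3 and 43.7 CPM in Ctrl (0.42 ± 0.06, adjusted p = 4.58e-04). Gm26512, which starts beside Dio2 on the other strand and overlaps it by 238 bases, rose with it (0.74 ± 0.10, adjusted p = 4.66e-04). Of the 12 thyroid hormone genes on the list all were tested, Dio2 and Slco1c1 rose and 10 did not pass. The list had a median log2 fold change of 0.06 without the block, against -0.0038 over all genes tested. Klf9, Hr and Nrgn, which respond to the hormone, had 0.01, 0.18 and 0.02 without the block and did not pass either fit.

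Among detoxifying enzymes, Gstm1, a glutathione S-transferase of astrocytes, held 72.1, 83.4, 101 and 89.5 CPM in cKO and 48.8, 58.5, 66.2 and 62.6 CPM in Ctrl (0.55 ± 0.05, adjusted p = 1.04e-06). Within each pair the cKO library was higher, and the libraries numbered 1 were the lowest of both genotypes. Gstm2-ps1 and Gm6665, pseudogenes that can share reads with their parent genes, rose too (0.52 ± 0.08, adjusted p = 0.00101, and 0.58 ± 0.13, adjusted p = 0.0419). Prdx6, a peroxidase that reduces lipid peroxides, held 91.6 to 102 CPM against 75.9 to 79.4 CPM in Ctrl (0.31 ± 0.05, adjusted p = 0.00134). In contrast Mt2, a metallothionein that binds zinc, held 30.9, 43.0, 46.6 and 32.9 CPM in cKO and 46.1, 56.8, 74.4 and 55.0 CPM in Ctrl. The ranges overlapped, but the cKO library was lower in all 4 pairs (-0.60 ± 0.06, adjusted p = 8.87e-06). Gm45774 lies on the other strand of Mt2 and its reads cannot be told apart from it (-0.60 ± 0.06, adjusted p = 1.46e-05). Over the 20 glutathione and antioxidant genes of the list, 1 rose, 1 fell and 18 did not pass, with a median log2 fold change of -0.01.

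In energy metabolism single enzymes rose while most members of their lists did not pass. Idh2, the mitochondrial isocitrate dehydrogenase that makes NADPH, held 31.6, 30.8, 39.2 and 37.4 CPM in cKO and 22.8, 27.3, 23.6 and 27.6 CPM in Ctrl (0.45 ± 0.08, adjusted p = 0.00616). All 24 genes of the TCA cycle list had a positive log2 fold change, with a median of 0.10, against 48.3% of all genes tested. This held under every scaling tried, a weak check, because the scalings moved the median of all genes only from -0.0038 to -0.0063. Of these 24, 7 were higher in every cKO library than in every Ctrl library, as were 1.74% of all genes tested. Idh2 alone of the 24 passed the test with the block. The summed level of the 24 was 2893 to 2980 CPM in cKO and 2644 to 2850 CPM in Ctrl. Of 23 tested identifiers for glycolysis, lactate and glycogen none passed either fit (median 0.04). Outside that list Tkt, the transketolase of the pentose phosphate pathway, rose by 0.20 ± 0.05 (adjusted p = 0.0499) and Ppp1r3c, which targets phosphatase to glycogen, by 0.34 ± 0.07 (adjusted p = 0.0339).

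In lipid metabolism, Plin4, a coat protein of lipid droplets, held 5.51, 6.77, 5.93 and 7.61 CPM in cKO and 3.95, 2.31, 2.99 and 2.73 CPM in Ctrl (1.10 ± 0.19, adjusted p = 0.00469). Acadvl, the first enzyme of mitochondrial very-long-chain fatty acid oxidation, held 26.4, 25.9, 26.0 and 26.2 CPM in cKO and 19.4, 18.6, 20.3 and 23.7 CPM in Ctrl (0.36 ± 0.08, adjusted p = 0.0392). The 4 cKO libraries of Acadvl lay within 25.9 to 26.4 CPM, above all of Ctrl. Slc25a34, a mitochondrial carrier, rose, with 6.55 to 7.82 CPM in cKO and 3.41 to 4.998 CPM in Ctrl (0.70 ± 0.16, adjusted p = 0.0452), Acot11, an acyl-CoA thioesterase, with 38.0 to 49.5 CPM against 31.0 to 34.97 CPM (0.36 ± 0.07, adjusted p = 0.0141), and Fads1, a fatty acid desaturase, with 155 to 161 CPM against 127 to 146 CPM (0.20 ± 0.04, adjusted p = 0.0336). Of 19 tested genes of lipid droplets and fatty acid oxidation, 4 rose with the block (Mfsd2a, Plin4, Acadvl and Slc25a34), 15 did not pass, and the median log2 fold change was 0.08. Apoe, the main lipoprotein of the brain, rose in all 4 pairs with overlapping ranges of 1036 to 1258 and 863 to 1079 CPM (0.24 ± 0.04, adjusted p = 0.00284). Of 16 cholesterol synthesis genes none passed either fit.

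For amino acids and nucleotides, Sardh, the mitochondrial sarcosine dehydrogenase, held 20.9, 17.3, 19.4 and 19.4 CPM in cKO and 13.2, 14.4, 13.3 and 13.3 CPM in Ctrl (0.50 ± 0.09, adjusted p = 0.00765, and 0.0532 without the block). Etnppl, an astrocytic enzyme that degrades phosphoethanolamine, held 11.02, 12.9, 13.8 and 12.1 CPM against 4.82, 8.14, 8.86 and 9.33 CPM (0.69 ± 0.12, adjusted p = 0.00758). Aldh1l1, a folate enzyme used as a marker of astrocytes, held 72.8 to 82.1 CPM against 60.7 to 69.3 CPM (0.24 ± 0.05, adjusted p = 0.0236). It was the only folate enzyme of 13 tested that passed with the block. Of 10 serine synthesis and transport genes none passed either fit, and their median was -0.0044. Phgdh, the first enzyme of serine synthesis, had a log2 fold change of 0.04 and Psat1 of 0.06 without the block. Slc7a10, the member of that list with the lowest p, had -0.31 in the edgeR fit with the block (adjusted p = 0.130), with overlapping ranges. Pnp, a purine nucleoside phosphorylase, held 15.3, 16.6, 21.1 and 16.1 CPM in cKO and 11.2, 11.5, 11.7 and 10.7 CPM in Ctrl (0.61 ± 0.10, adjusted p = 0.00248), and the gene models Gm49342 and Gm38316 that overlap it rose with it. The reads of these overlapping models cannot be told apart from those of Pnp. Of 10 tested purine salvage genes Pnp alone rose and 9 did not pass.

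Of the genes of reactive astrocytosis, Gfap rose in both fits and Vim with the block. Vim, which encodes the filament protein vimentin, held 37.2, 48.0, 53.8 and 41.3 CPM in cKO and 27.0, 35.8, 35.8 and 37.0 CPM in Ctrl. The lowest cKO library was just above the highest Ctrl library, 37.2 against 37.0 CPM (0.41 ± 0.07, adjusted p = 0.00344). The study chose its own panel of astrocytosis genes for RT-qPCR, so its count is not independent evidence of a direction. Of the 9 genes of that panel, all tested, 2 rose with the block and 7 did not pass. Without the block, 6 of the 9 had a positive log2 fold change, against 48.3% of all genes tested. Their median was 0.42, against -0.0038 over all genes tested. The 7 that did not pass had 0.67 (Osmr), 0.74 (Emp1), 0.45 (Ggta1), 0.29 (Cd109), -0.28 (Srgn), -0.20 (Serping1) and -0.07 (Clcf1) without the block. Among 11 tested pan-reactive genes Gfap and Vim again were the 2 that rose, and 5 had a negative log2 fold change. Serpina3n of that list, a secreted protease inhibitor, held 6.99 to 8.65 CPM in cKO and 8.76 to 12.3 CPM in Ctrl, lower in every cKO library, and did not pass (-0.35 ± 0.12, adjusted p = 0.455). Hspb6, a small heat shock protein, rose, with 7.93 to 11.97 CPM in cKO and 4.89 to 5.92 CPM in Ctrl (0.78 ± 0.14, adjusted p = 0.00821), and 9 other heat shock genes tested did not pass. Ifitm3, an interferon-induced membrane protein, rose, with 8.71 to 10.3 CPM in cKO and 5.61 to 7.17 CPM in Ctrl (0.55 ± 0.12, adjusted p = 0.0391), alone of 10 interferon-induced genes tested. Gpnmb, a glycoprotein of phagocytes that is also made in reactive glia, rose in all 4 pairs from low levels (2.53, 4.37, 6.69 and 5.21 CPM in cKO and 1.403, 2.31, 2.44 and 3.07 CPM in Ctrl, 1.01 ± 0.19, adjusted p = 0.0141), and the 10 microglial markers, none of which passed, summed to 420.9 to 460.7 CPM in cKO and 434.6 to 443.0 CPM in Ctrl. Their part in the rise of Gpnmb was not tested.

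Single genes rose on the lists of Notch and lineage factors and of synapse formation and engulfment. Hes5, a target of Notch, held 11.1, 10.7, 10.46 and 13.97 CPM in cKO and 8.24, 7.22, 8.31 and 7.73 CPM in Ctrl (0.55 ± 0.12, adjusted p = 0.0336), alone of 20 Notch and lineage genes. Megf10, an engulfment receptor with which astrocytes remove synapses, held 16.9 to 21.8 CPM against 12.7 to 15.3 CPM (0.50 ± 0.10, adjusted p = 0.0189), and Chrdl1, which is secreted by astrocytes and matures synapses, held 12.1 to 15.5 CPM against 8.14 to 11.6 CPM (0.47 ± 0.10, adjusted p = 0.0367). The 10 other genes of that list of 12 did not pass. Ednrb, the endothelin B receptor, rose, with 48.9 to 56.3 CPM in cKO and 40.1 to 44.9 CPM in Ctrl (0.29 ± 0.06, adjusted p = 0.0192), Ptn, pleiotrophin, with 240.4 to 298 CPM against 219 to 224 CPM (0.25 ± 0.05, adjusted p = 0.00771), and Entpd2, which degrades extracellular ATP, with 12.8 to 16.8 CPM against 9.03 to 10.9 CPM (0.49 ± 0.11, adjusted p = 0.0358). Igfbp2, with overlapping ranges of 21.7 to 38.3 and 20.1 to 25.6 CPM, was higher in all 4 pairs (0.43 ± 0.08, adjusted p = 0.00797). Hepacam, an adhesion protein of astrocyte end feet, was also higher in all 4 pairs, with overlapping ranges (0.25 ± 0.05, adjusted p = 0.0236). Its call was lost without pair 2, 3 or 4. Aqp4, the water channel of the same end feet, had 0.22 ± 0.08 without the block and 0.21 with it (adjusted p = 0.107). It did not pass, although every cKO library was above every Ctrl library.

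Most members of the transport and signalling lists did not pass either. With the block, Kcnj10 and Hepacam rose of 13 genes of potassium buffering, water transport and gap junctions, Gpt of 16 of glutamate uptake and transamination, Slc9a3r1 of 12 of sodium, calcium and proton transport, and Sardh of 12 tested of glycine, sarcosine and creatine. Igfbp5 and Igfbp2 rose of 10 IGF genes, and S100a1 of 8 tested S100 genes. The medians of these 6 lists, without the block, lay between -0.01 and 0.10.

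Other genes that rose with the block had less in common. Btbd17, an astrocyte gene of little-known function, held 26.1, 28.1, 27.0 and 21.5 CPM in cKO and 19.6, 19.8, 20.2 and 16.1 CPM in Ctrl, with the libraries numbered 4 the lowest of both genotypes (0.44 ± 0.07, adjusted p = 0.00479). Vcam1, an adhesion molecule of vessels and glia, held 22.8 to 25.9 CPM against 17.7 to 20.3 CPM (0.37 ± 0.08, adjusted p = 0.0312), and Adgrg1, an adhesion receptor of glia and progenitors, held 81.2 to 93.7 CPM against 64.1 to 74.8 CPM (0.33 ± 0.05, adjusted p = 0.00284). Agt, the angiotensin precursor that astrocytes make, held 20.7, 22.0, 28.8 and 41.8 CPM in cKO and 18.2, 19.7, 20.0 and 23.1 CPM in Ctrl, and cKO 4 was the highest of all (0.45 ± 0.10, adjusted p = 0.0336). Cdkn1a, the cell cycle inhibitor p21, was higher in all 4 pairs with overlapping ranges of 12.8 to 23.9 and 9.29 to 14.7 CPM (0.46 ± 0.10, adjusted p = 0.0236). Ccnd2, a cyclin, also overlapped, at 99.8 to 136 and 89.5 to 104 CPM (0.27 ± 0.05, adjusted p = 0.00672). Pmp22, a membrane protein known from peripheral myelin, was higher in all 4 pairs and did not overlap (0.60 ± 0.12, adjusted p = 0.0141). Ddr1, a collagen receptor, was the named gene nearest to the threshold among those that rose, with Tkt (0.25 ± 0.06, adjusted p = 0.0499). Appl2, an endosomal adaptor, and Gm2a, which helps to degrade gangliosides in lysosomes, rose by 0.37 and 0.28 on the log2 scale (adjusted p = 0.00276 and 0.00766). Further genes that rose were Tsc22d4, Slc41a1, Psd2, AI464131, 2310022B05Rik, Ccdc80, Pbxip1, Tmem176b, Gm42047, Gm11532 and Nat8f7, a close copy of Nat8f3. So did Padi2 and its antisense Gm13031, whose reads cannot be told apart where the genes overlap. The log2 fold changes of these further genes ran from 0.26 for Slc41a1 to 1.66 for Gm11532, a gene with 1.20 to 1.76 CPM in cKO.

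**Figure D4:**
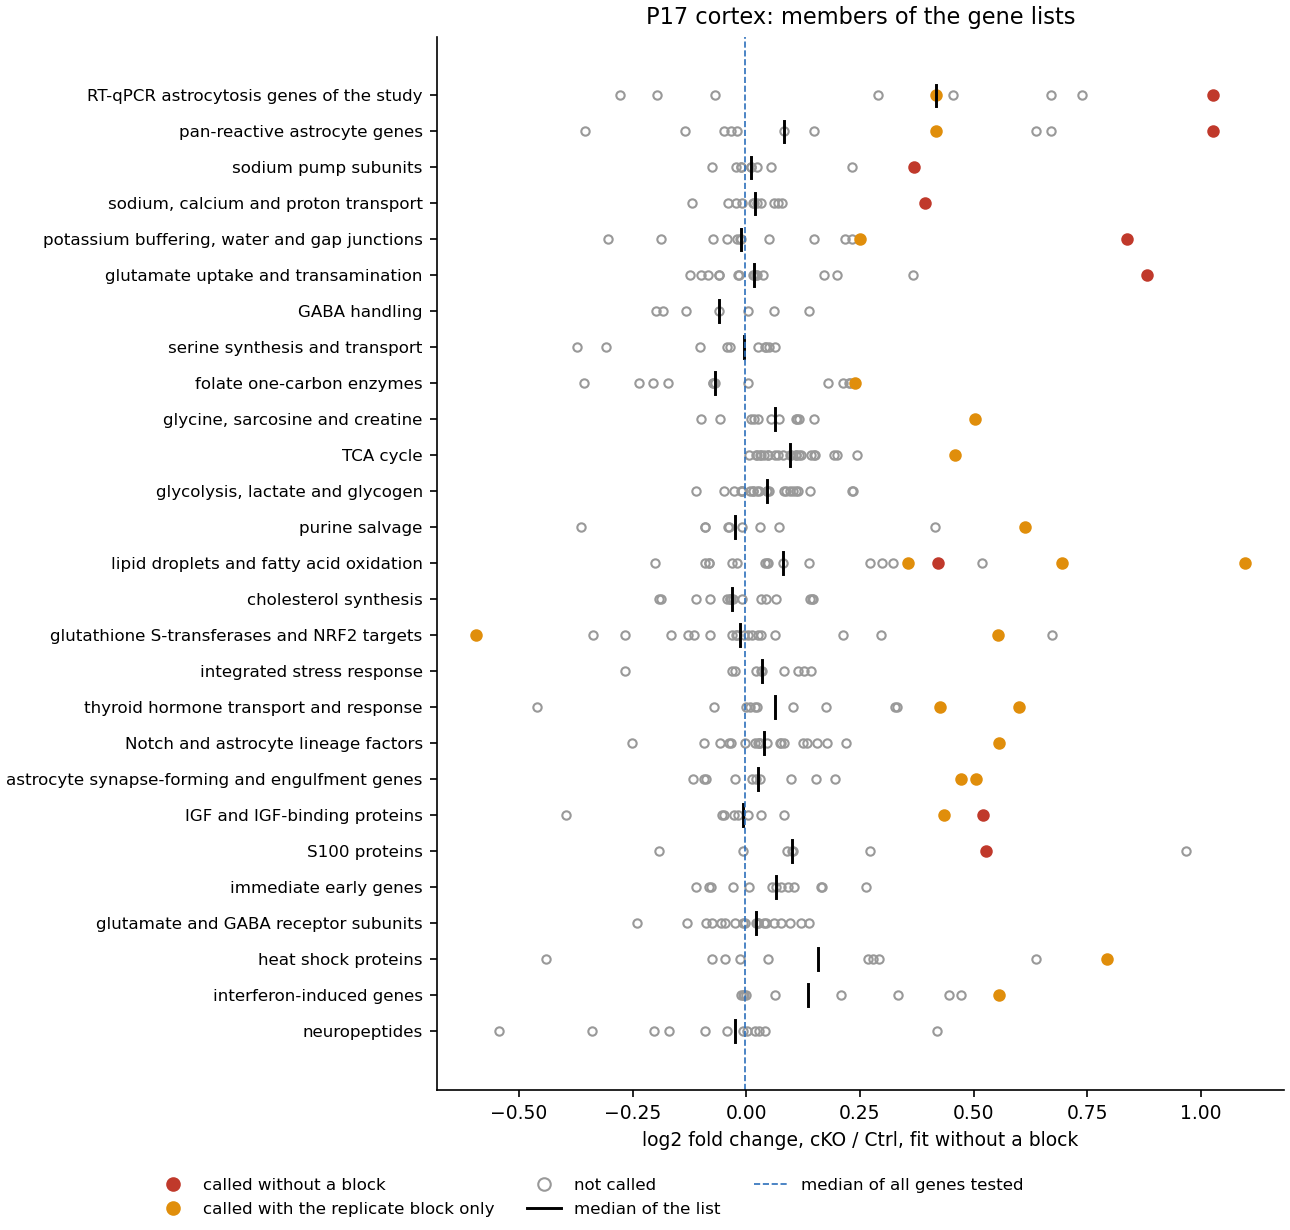
Log2 fold change between cKO and Ctrl at P17 in the fit without a block (horizontal axis) for each reported, tested member of 27 gene lists (rows). Red points passed without a block, orange points with the block only, and open points with neither. Black bars are list medians and the dashed line is the median of all tested genes. Most members lie near that line, and the TCA cycle members all lie above 0.

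Fewer named genes fell. Fam107a, an actin-binding protein of astrocytes and radial glia, held 165, 176, 195 and 179.9 CPM in cKO and 192, 265, 259 and 286 CPM in Ctrl and was lower in all 4 pairs (-0.47 ± 0.06, adjusted p = 4.22e-05). Myoc, myocilin, a secreted glycoprotein, held 5.51, 10.3, 4.42 and 4.17 CPM in cKO and 13.6, 12.3, 14.5 and 8.87 CPM in Ctrl (-1.02 ± 0.17, adjusted p = 0.00329), and Myocos, which overlaps it by 2501 bases on the other strand, fell with it (-0.93 ± 0.15, adjusted p = 0.00265). Reads of Myoc and Myocos cannot be told apart where the genes overlap. The 7 meningeal and fibroblast markers summed to 121.9 to 196.8 CPM in cKO and 158.5 to 201.3 CPM in Ctrl, and their part in the fall of Myoc was not tested. Plpp3, a lipid phosphate phosphatase of astrocytes, fell, with 109 to 126 CPM in cKO and 131 to 146 CPM in Ctrl (-0.20 ± 0.04, adjusted p = 0.0384), and Itih5, a hyaluronan-binding protein, with 27.6 to 30.2 CPM against 31.6 to 40.5 CPM (-0.33 ± 0.07, adjusted p = 0.0213). Bc1, a neuronal noncoding RNA that represses translation in dendrites, held 634, 739, 529.8 and 519 CPM in cKO and 820.2, 1161, 686 and 552 CPM in Ctrl, so that the ranges overlapped widely while the cKO library was lower in each pair (-0.37 ± 0.06, adjusted p = 0.00166). Ndn, an imprinted neuronal gene, held 102, 105, 162 and 177 CPM in cKO and 163, 189, 179.9 and 176 CPM in Ctrl, with cKO 1 and cKO 2 far below the rest (-0.41 ± 0.09, adjusted p = 0.0425). The remaining genes that fell were 2900052N01Rik, Baalc, Fam20a, Bfsp2, Gm28438 and Mir5114, with log2 fold changes of -0.72, -0.22, -0.34, -0.70, -0.29 and -0.65. Rpl29, a ribosomal protein gene, and its copy Gm17669 were lower in all 4 pairs (-0.72 ± 0.13, adjusted p = 0.00765, and -0.85 ± 0.15, adjusted p = 0.00685). Their libraries numbered 3 were far below the others in both genotypes, 0.971 and 1.55 CPM for Rpl29 against 9.48 to 23.5 CPM in the rest.

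Loci of small nucleolar RNAs on chromosome 7 formed a run of low-count genes. Oligo-dT libraries do not measure the mature forms of these RNAs, so the values are reads at the loci. Of 59 loci tested between 59 and 61 Mb, all within the imprinted host transcript Snhg14, 9 starting from 59410933 to 59428743 rose and 2 fell. None of these 11 exceeded 6.4 CPM in a library. Gm24528 of this run held 2.53, 2.18, 1.62 and 5.42 CPM in cKO and 1.05, 0.370, 0.554 and 1.48 CPM in Ctrl, with library 4 the highest in each genotype (1.75 ± 0.28, adjusted p = 0.00250). Their sequences repeat and can share reads, none of the 11 passed without the block (lowest adjusted p 0.438), and Snhg14 itself had a log2 fold change of -0.10.

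Genes of other cell types mostly did not pass. None of the markers of neurons, oligodendrocyte precursors, microglia, endothelial cells, mural cells, meninges, choroid plexus, blood, striatum or thalamus passed in either edgeR fit. Of 10 oligodendrocyte markers, Opalin, an oligodendrocyte membrane protein, held 13.1, 13.98, 12.2 and 12.4 CPM in cKO and 8.59, 9.44, 8.75 and 9.33 CPM in Ctrl without overlap (0.52 ± 0.10, adjusted p = 0.0186), and Mag, a myelin adhesion protein, was higher in all 4 pairs (0.19 ± 0.04, adjusted p = 0.0312). Summed oligodendrocyte markers overlapped between groups, 4187 to 4885 CPM in cKO and 3832 to 4745 CPM in Ctrl. The 5 choroid plexus markers ranged from 81.75 to 557.4 CPM in cKO and from 112.4 to 497.5 CPM in Ctrl. Neither the 13 immediate early genes nor the 19 glutamate and GABA receptor subunits held a gene that passed, and the same was true of 7 GABA handling genes, 12 neuropeptides and 10 tested integrated stress response genes.

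The P24 libraries took no part in the P17 calls. In TRAP-Seq of Ctrl mice at P24, 35.3% of all tested genes were higher in IP than in Input and 35.7% were lower. Of the 14 genes that rose at P17 without the block, 13 were higher in IP, with a median log2 ratio of 2.59, against -0.03 over all genes. Of the 75 tested genes that rose with the block, 68 were higher in IP and 2 lower, with a median of 2.74. Opalin and Mag were the 2 that were lower (-0.42 and -1.76), Gfap was at 3.66, Dio2 at 4.97 and Gstm1 at 4.08. Of the 20 tested named genes that fell with the block, 14 were higher in IP and 4 lower. Vapa had a log2 ratio of 0.12 and did not pass, Rab31 was higher in IP (1.72) and Cbarp lower (-1.77).

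Between genotypes, TRAP IP at P24 called 20.0% of genes, or 4782 of 23864 tested, and 2772 of these were higher in cKO. Of the 14 genes that rose at P17 without the block, 9 were higher in cKO IP and none lower. Of 75 tested genes that rose with the block 36 were higher in cKO IP and 3 lower, and of 19 tested named genes that fell with it 9 were lower and 4 higher. Kcnj10 was at 0.69 (adjusted p = 0.0473) and Pea15a at 1.32 (adjusted p = 2.52e-05) in IP. Rab31 went the other way in IP, at 0.35 (adjusted p = 0.0269), and Vapa stood at 0.03 (adjusted p = 0.882). In Input, where 0.109% of genes were called and where both genotypes had given IP libraries, none of the 17 passed. Of the 75 that rose with the block, Prdx6, Vim, Igfbp2, Gstm1 and Gstm2-ps1 were higher in cKO Input and none was lower. Vapa, Rab31 and Fam187a had log2 fold changes of 0.24, 0.21 and 0.17 in Input (adjusted p = 0.812, 0.812 and 0.885), against -1.06, -0.64 and 5.12 in bulk cortex at P17. Age, mice and library preparation differ between Input and P17 bulk cortex. The Ctrl genotype differs too, because tagged ribosomes depend on Cre and the bulk Ctrl genotype is given without the driver. The part of each difference was not tested.

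In bulk cortex of other mice at P24, 1.72% of genes passed (1.26% up and 0.462% down). Of the 14 genes that rose at P17 without the block, 12 rose again, and Scrg1 and Mfsd2a, at 0.22 and 0.25, did not pass. Vapa, Rab31 and Cbarp fell again, by 0.93, 0.41 and 0.55 on the log2 scale. Of the 84 that rose with the block, 55 rose at P24 and none fell, and of the 22 named that fell with the block 8 fell and 1 rose. Hes5, Etnppl, Btbd17, Apoe and Mt2, which passed with the block at P17, had P24 log2 fold changes of -0.02, -0.13, -0.21, 0.09 and -0.01 and did not pass there.

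A direct test of the genotype effect at P24 against that at P17, over all 16 bulk libraries, called 0.047% of genes. Gfap went from 1.03 at P17 to 2.51 at P24 (difference 1.48, adjusted p = 1.29e-04) and Gm26668 from 0.50 to 1.60 (difference 1.11, adjusted p = 6.86e-05). Vim went from 0.42 to 3.22 (difference 2.81, adjusted p = 0.0200). Dhrs1, a short-chain dehydrogenase, Ednrb and Aldh1l1 also had a larger effect at P24, with differences of 1.46, 0.95 and 0.94 (adjusted p = 0.0351, 0.0182 and 0.0323). Mir5114, whose locus is read here in oligo-dT libraries that do not measure the mature miRNA, went from -0.67 to 1.48 (difference 2.15, adjusted p = 0.0182). With each of the 16 libraries left out in turn, the difference between ages was still called in all 16 fits for Gfap and Gm26668, in 10 for Ednrb, 8 for Mir5114, 7 for Vim, 5 for Aldh1l1 and 2 for Dhrs1. The 5 less stable calls were all lost without P17 cKO 1, P17 cKO 2, P17 Ctrl 2, P24 cKO 3, P24 Ctrl 2 or P24 Ctrl 3, and their estimated differences kept their sign, at 0.81 to 3.11. For Kcnj10, Pea15a, Vapa, Rab31, Gpt and Slc9a3r1 no difference between the ages was called, and the estimated differences were 0.28, 0.16, 0.13, 0.23, 0.07 and -0.01.

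**Figure D5:**
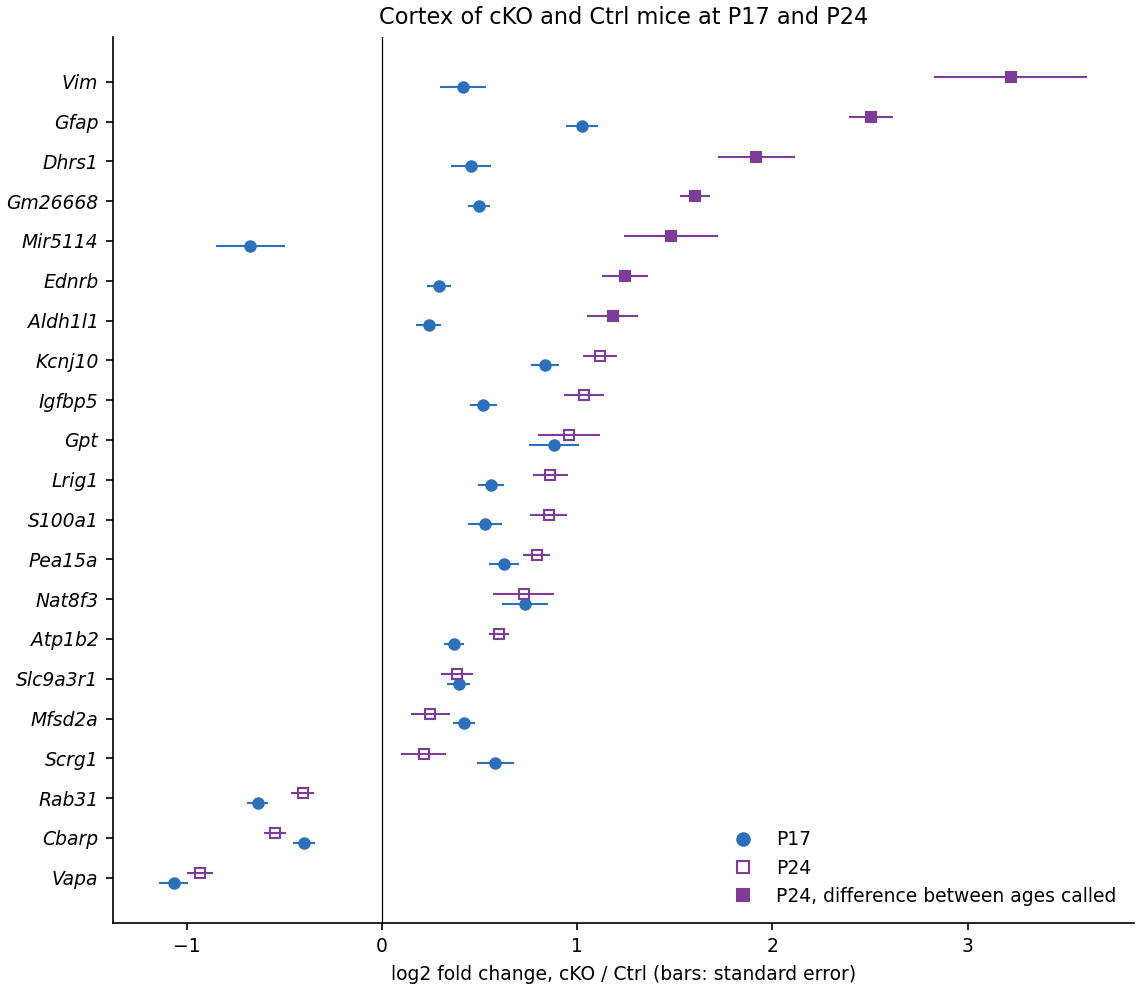
Log2 fold change between cKO and Ctrl cortex with its standard error (bars) at P17 (circles) and at P24 (squares), for the named genes that passed at P17 without a block and those whose effect differed between ages, except Fam187a. Filled squares mark genes called in the test of the difference between ages. Gfap, Vim, Dhrs1, Gm26668, Ednrb and Aldh1l1 lie further to the right at P24, and Kcnj10, Pea15a, Vapa and Rab31 lie near their P17 values.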

How the data were processed

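Counts per gene were deposited by the authors as raw read counts for each library. Per the study's methods reads were mapped with RNA STAR in Galaxy to mm10. The counting tool, its strand setting and its annotation are not given in the sources used here. Of 53342 identifiers, 53237 were named from GENCODE mouse release 21. Groups were taken from the sample labels, and the age of the bulk tables from the labels and the table. No batch is given beyond sex-matched littermates.

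In R 4.3.3, edgeR 4.0.16 (filterByExpr with a minimum count of 10, TMM factors, quasi-likelihood F test, two-sided, Benjamini-Hochberg adjustment over all genes tested, threshold 0.05) was run without a block, following the study's use of edgeR. Standard errors were taken from the F statistic. Pairing was checked on residuals of log2(CPM + 0.5) from the group means: same-numbered libraries correlated at 0.179 to 0.420 and the 12 other pairs at -0.320 to 0.122. The replicate number, which the labels give, was therefore also fitted as a block. Alternatives were the likelihood ratio and exact tests, DESeq2 1.42.0, RLE factors, library size alone, other count filters, all bulk libraries in 1 fit, each library left out and, chosen after seeing the data, each same-numbered pair left out of the blocked fit. The fits were tested on simulated data with known changes. No 2 P17 libraries of the same genotype agreed within sampling noise; other pairs were not compared in this way. P24 and TRAP tables were fitted separately, except for the test of the difference between ages.

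Named genes were those passing without a block, and, of those passing with it, list members and those with the largest changes, plus neighbours of called genes and list members given for context; further genes were named to account for all that passed, after their values were seen. The genes and lists were chosen with earlier results of these data known. The targeted gene and some other genes, 3 of the 20 passing without a block, are not reported here.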

Additional observations from a re-analysis of the deposited data

Results flagged for a closer look

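In 14 of 234 groups of 4 libraries examined, 1 library stood apart from the other 3 by Dixon's criterion, where chance alone would set apart about 1 group in 20. Among Ctrl libraries, Btbd17 was at 16.1 CPM in library 4 against 19.6 to 20.2 CPM in the others, and Aqp4 at 63.3 CPM in library 4 against 73.0 to 73.5 CPM. Vim was at 27.0 CPM in Ctrl 1 against 35.8 to 37.0 CPM, and Gm26668 at 329 CPM in Ctrl 1 against 353 to 355 CPM. In Ctrl 2, Sardh was at 14.4 CPM against 13.2 to 13.3 CPM, Acot11 at 35 CPM against 31.0 to 31.6 CPM and Mlc1, a membrane protein of astrocyte end feet, at 88.3 CPM against 84.5 to 84.8 CPM. Prdx6 was at 79.4 CPM in Ctrl 3 against 75.9 to 76.3 CPM.

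Among cKO libraries, number 1 was the lowest for Nat8f3 (8.49 CPM against 9.38 to 9.50), Ppp1r3c (20.4 against 27.9 to 28.3), Gm6665 (7.16 against 9.83 to 10.1) and Gstm2-ps1 (23.4 against 30.3 to 31.4). Pbxip1 was at 46.3 CPM in cKO 2 against 54.5 to 56.2 CPM, and Chrdl1 at 15.5 CPM in cKO 3 against 12.1 to 12.5 CPM.

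The genotype effect differed between P24 and P17 for 7 of the named genes by edgeR's test of the difference. The P24 log2 fold change was higher by 1.48 for Gfap (adjusted p = 1.29e-04), 1.11 for Gm26668 (6.86e-05), 2.81 for Vim (0.0200), 1.46 for Dhrs1 (0.0351), 0.95 for Ednrb (0.0182), 0.94 for Aldh1l1 (0.0323) and 2.15 for Mir5114 (0.0182). Of these 7, Gfap and Gm26668 passed with any 1 of the 16 libraries left out, and the other 5 in 2 to 10 of the 16 fits.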

How the results depend on the processing

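At P17 the 20 calls became 61 by the edgeR likelihood ratio test, 57 by its exact test, 41 by DESeq2, 55 without a filter beyond 1 count and 109 with the replicate block, and all 20 were among the calls in each of these. With RLE factors or library size alone 18 remained of the 20, and 18 of them passed at 10 or more counts in every library. In 1 fit with all bulk libraries 14 of the 20 passed, and those lost were Slc9a3r1, Gpt, Mfsd2a, Scrg1, S100a1 and Nat8f3. Leaving out 1 library gave 11 to 19 calls, the fewest without Ctrl 2 (11) and Ctrl 3 (13). The blocked fit gave 64, 61, 60 and 158 calls without pairs 1, 2, 3 and 4, an alternative chosen after seeing the data. No named gene changed direction under any alternative. For the named genes, 67 results lost their call and 361 gained one over all alternatives.

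At P24 the 388 calls became 619 by the likelihood ratio test, 598 by DESeq2 and 618 without a filter, and ranged from 216 to 950 with 1 library left out (950 without cKO 1). The 11 calls of the difference between ages became 52, 54 and 62 in the same order and 55 with the replicate block, and ranged from 4 to 149 (149 without P24 cKO 1). The cause was not tested. Calls between genotypes in TRAP IP ranged from 2633 to 4810 with 1 library left out. In TRAP Input the 26 calls became 137, 127 and 112 in the same order, 15 at 10 or more counts in every library and 8 with the replicate block, and ranged from 4 to 112. The block changed no other count of calls by more than 1.5 times except within the gene lists, where it is given beside each list. Genes below the count filter were not tested, and a Ctrl level such as that of Fam187a rests on 6 reads.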
